A study of Mus musculus with 6 samples.

Results

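The integrated stress response and the serine path were followed through 34 genes found among the 29957 genes of the deposited table. These were chosen by name, with earlier results of these data known. In this response, kinases that sense haem or iron stress, amino acid lack, misfolded protein or double-stranded RNA phosphorylate the alpha subunit of the initiation factor eIF2. General translation then slows, while the mRNA of the transcription factor ATF4 is translated better through its upstream reading frames. ATF4 switches on the factor CHOP, a phosphatase subunit that reverses the signal, and enzymes that make asparagine and serine and pass serine carbon into folate. In macrophages, serine and folate metabolism is known to feed nucleotide and glutathione synthesis and interleukin-1 production after LPS.

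RNA was sequenced from bone marrow-derived macrophages of wild-type (WT) mice, which are grown in culture from marrow cells, in 3 control libraries and 3 libraries of cells given LPS+PA-BSA. LPS is a bacterial lipid that TLR4 senses, and PA-BSA is named as a free fatty acid, given after LPS in the role that ATP usually has as second signal for the Nlrp3 inflammasome. The labels give no dose, time, strain, sex or age and leave unsaid if LPS or BSA was also in the control wells. No library had LPS alone, so effects of LPS and of PA-BSA cannot be told apart. The origin of the 3 libraries in each group is not described, so p-values measure the spread between these libraries, which may be technical. In these bulk samples, fewer cells of a type and less RNA per cell cannot be told apart, and mRNA says nothing of the phosphorylation of eIF2 or of ATF4 protein. Values are FPKM (fragments per kilobase of transcript, scaled to library size), which compare genes per length, and each is for the whole gene.

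The depth of the libraries was estimated at 13.9 to 21.2 M (mega) fragments from the steps between low FPKM values. Only 9.44 to 12.1% of these low values lay on whole steps, so the depths are rough. The 7 macrophage markers (1 higher, 5 lower after treatment) were each above 1 FPKM on average, with Adgre1, the gene of the surface marker used to identify mouse macrophages, at means of 1400 FPKM (control) and 1420 FPKM (LPS+PA-BSA). The summed level of these 7 ran from 18700 to 21900 FPKM in controls and from 11800 to 14200 FPKM after treatment. Markers of another origin moved with the groups too. The 6 stromal markers, led by collagen genes, summed to 80.9 to 163 FPKM in controls and 14.4 to 16.4 FPKM after treatment, with 5 lower and none at 0 in every library, and the 10 cell cycle markers went from 105 to 142 FPKM down to 47.7 to 56.1 FPKM, with 10 lower. Neutrophil markers summed to 10.4 to 27.6 FPKM in controls and 59.4 to 75.9 FPKM after treatment through S100a8 alone (means of 7.39 and 62.3 FPKM), while the means of the other listed ones were lower after treatment, such as 3.98 and 0.224 FPKM for Ngp and 7.55 and 3.82 FPKM for S100a9, which did not pass the test. The part of these in the results that follow was not tested. Control 3 and LPS+PA 1 stood apart: across genes, their departures from their group means ran against transcript GC content (Spearman's rho -0.683 and -0.619). Since departures within a group of 3 sum to 0, the opposite sign in the other 4 libraries (0.394 to 0.585) follows in part from the centring. Against the mean of all 6 libraries rho was 0.463, 0.476 and -0.146 in controls 1 to 3 and -0.519, -0.237 and -0.166 in LPS+PA 1 to 3, so that control 3 and LPS+PA 1 were again the lowest of their groups. Values without these libraries are given for members whose groups overlapped through them or whose call changed.

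Some of the ATF4 target genes carry a C/EBP-ATF response element close to their start, and these are shown because members with the same element moved in opposite directions. The core TGATGNAA, where N is any base, was searched on both strands in the RefSeq windows from 250 bases before to 50 bases after each start (GRCm38.p6). It was found in 6 of the 29 members with a window (20.7%), against 1219 of 27025 genes with a window (4.51%) and 234 of 8232 tested genes with one (2.84%). The 6 stretches follow, each 5′ to 3′ on the gene's own strand with the core, or its reverse complement, in capitals.
Asns, chr6:7693214-7693243, minus strand: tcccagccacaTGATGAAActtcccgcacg
Chac1, chr2:119351023-119351082, plus strand: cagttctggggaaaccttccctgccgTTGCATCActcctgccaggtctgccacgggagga
Nupr1, chr7:126625562-126625591, minus strand: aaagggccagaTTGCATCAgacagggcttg
Trib3, chr2:152344028-152344057, minus strand: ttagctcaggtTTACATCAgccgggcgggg
Pycr1, chr11:120643818-120643877, minus strand: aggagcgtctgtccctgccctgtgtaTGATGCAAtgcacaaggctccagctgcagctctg
Vldlr, chr19:27216809-27216838, plus strand: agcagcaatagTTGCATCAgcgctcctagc
The matches in Asns, Nupr1 and Vldlr lie inside an exon of some transcript in GENCODE M21, and those in Chac1, Trib3 and Pycr1 do not. Chac1, Nupr1 and Vldlr hold the same 8 bases, TTGCATCA, whose reverse complement is the match in Pycr1. Asns, Chac1 and Nupr1 were higher after LPS+PA-BSA, Vldlr was lower, Pycr1 was listed lower at levels under 1 FPKM, and Trib3 did not pass the test with all libraries. No core was found in the windows of 5 members of eIF2 and translation control or of 5 folate enzymes, nor in that of Atf4 or Ddit3. A match describes these letters and is no evidence of binding.

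Of the 34 members, 31 passed the filter (1 FPKM or more in at least 3 of 6 libraries) and were tested together with 11364 genes by limma on log2(FPKM + 1). After LPS+PA-BSA 14 were higher and 6 lower at a Benjamini-Hochberg adjusted p under 0.05, where 22.2% of all tested genes were higher and 32.9% lower (55.1% in either direction). The members lower numbered 3 when control 1, LPS+PA 1 or LPS+PA 3 was left out, under quantile normalization or median scaling, and after the GC trend was removed. Over all tested genes, quantile normalization gave 3014 higher and 2922 lower, and median scaling 3097 and 3049, against 2523 and 3736. Without the filter, 14 of the 34 were higher and 4 lower, against 9.02% and 13.8% of the 29957 genes in the table. Cth passed the filter through the treated libraries alone and Vldlr through the controls alone, so their inclusion already required a difference. The median log2 fold change was 0.15 over the tested members and -0.11 over all tested genes. Quantile normalization brought the latter to 0.01, so small falls are to be read against that shift. In 16 of the 31 tested members all treated libraries lay above all controls and in 6 below, where 26.3% and 36.9% of tested genes did so. The authors' deposited table marks 10 members as up and 2 as down, where it marks 4.75% and 9.8% of its genes.

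**Figure D1:**
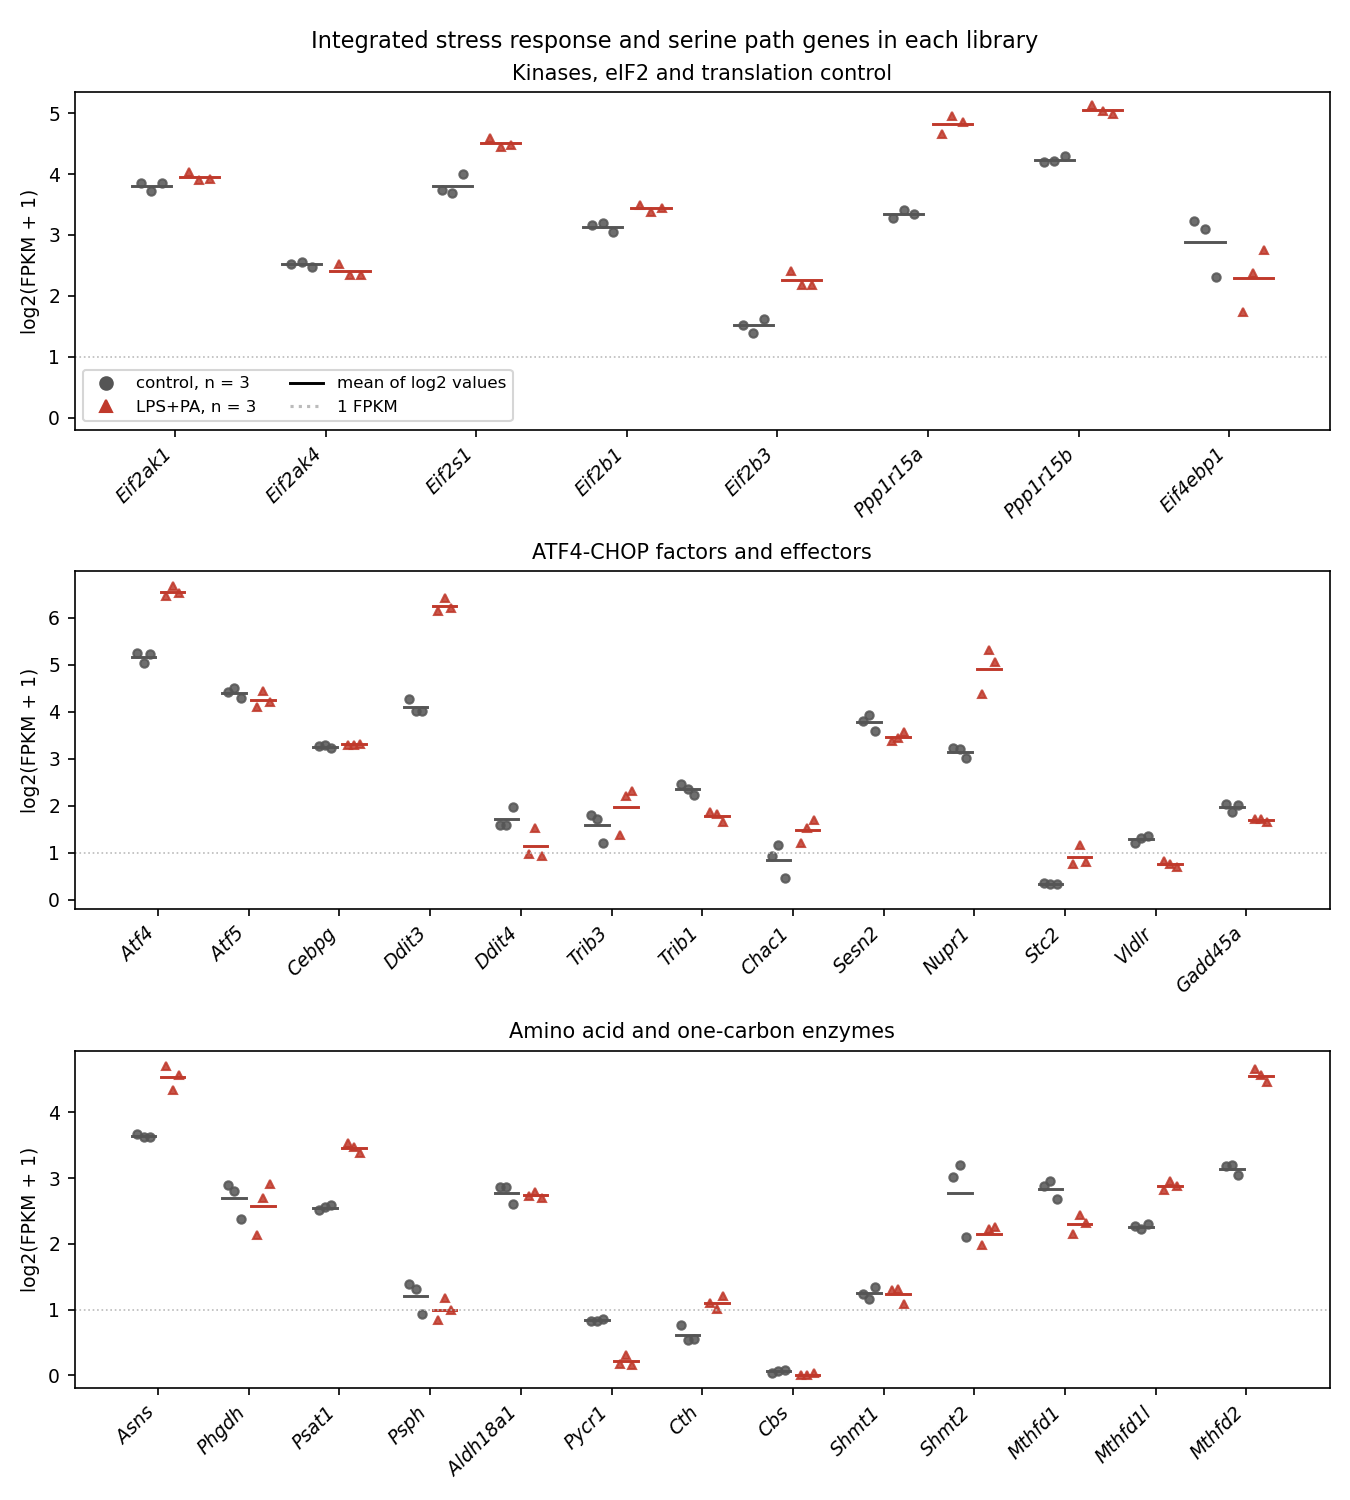
Level of each of the 34 genes as log2(FPKM + 1), 1 point per library (3 controls in grey, 3 LPS+PA libraries in red), with the mean of the log2 values as a bar and 1 FPKM as a dotted line. Atf4, Ddit3, Nupr1, Ppp1r15a, Mthfd2, Asns and Psat1 show groups far apart, while Phgdh, Psph, Trib3 and Shmt2 overlap between groups.

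The genes of the eIF2 step and its reversal rose in part. Of these 8 members 5 were called higher and none lower, where 22.2% and 32.9% of all tested genes were. Among them were Ppp1r15a and Ppp1r15b, the subunits GADD34 and CReP that bring protein phosphatase 1 to eIF2 alpha. Ppp1r15a was at 8.76, 9.68 and 9.16 FPKM in controls 1 to 3 and at 24.3, 29.9 and 27.8 FPKM in LPS+PA 1 to 3. Every treated library lay far above every control. Its mean went from 9.20 ± 0.460 to 27.3 ± 2.82 FPKM (SD, n = 3 per group; limma log2 fold change 1.47 with SE 0.0966 and adjusted p = 4.69e-05). Ppp1r15b, the constitutive partner, was at 17.3, 17.5 and 18.6 FPKM and then at 34.3, 31.7 and 30.7 FPKM, a narrow range in each group. Its log2 fold change was 0.82 (SE 0.0773, limma adjusted p = 0.000212), so that the inducible subunit, the lower of the pair in controls, came close to the constitutive one (27.3 and 32.2 FPKM).

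Eif2s1 encodes eIF2 alpha itself, the target of the kinases. It was at 12.4, 11.9 and 15.0 FPKM in controls and at 23.1, 20.8 and 21.3 FPKM after treatment. The groups lay apart, with control 3 the highest control (limma log2 fold change 0.70 with SE 0.105 and adjusted p = 0.00179), and the value was 0.39 once the dependence of every library on GC content and length of transcripts had been taken out, still past the threshold. Eif2b3 and Eif2b1 encode subunits of eIF2B, the exchange factor that phosphorylated eIF2 blocks. Eif2b3 was at 1.88, 1.63 and 2.07 FPKM in controls and 4.33, 3.52 and 3.52 FPKM after treatment, without overlap (limma log2 fold change 0.74 with SE 0.107 and adjusted p = 0.00145), and 0.46 after the GC trend was removed. Eif2b1 went from 7.78 ± 0.463 to 9.86 ± 0.405 FPKM (SD, n = 3; limma adjusted p = 0.0165), a call lost after the GC trend was removed (0.19), without control 1 or LPS+PA 3, and with replicate numbers as a block.

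The mRNAs of the eIF2 kinases went different ways. Eif2ak1, the haem-regulated kinase HRI, was at 13 ± 0.693 and 14.5 ± 0.691 FPKM (SD, n = 3; limma log2 fold change 0.15, 95% interval -0.04 to 0.33, limma adjusted p = 0.153). Eif2ak4, the kinase GCN2 that senses uncharged tRNA, was at 4.73 ± 0.162 and 4.29 ± 0.402 FPKM (SD, n = 3; limma log2 fold change -0.12, interval -0.33 to 0.09, limma adjusted p = 0.286), and was lower without control 3 and LPS+PA 1 (-0.20, limma adjusted p = 0.0411, within 0.0411 to 0.899 over the alternatives). Among the other pathway genes, Eif2ak2, the RNA-sensing kinase PKR and an interferon target, rose from 18.1 ± 1.88 to 49.2 ± 4.40 FPKM (SD, n = 3; limma log2 fold change 1.39, limma adjusted p = 8.53e-05). Eif2ak3, the ER kinase PERK, fell from 5.17 ± 0.0159 to 3.27 ± 0.119 FPKM (SD, n = 3; limma log2 fold change -0.53, limma adjusted p = 0.00113). Of these 4 kinases 1 rose, 1 fell and 2 had no call. Eif4ebp1, the inhibitor of cap binding 4E-BP1, was at 8.41, 7.61 and 3.94 FPKM in controls and 2.34, 4.18 and 5.73 FPKM after treatment. The groups overlapped, with control 3 and LPS+PA 1 the lowest of their groups (limma adjusted p = 0.168). With a term for these libraries its log2 fold change was again -0.59 and passed (limma adjusted p = 0.00483, within a range of 0.00483 to 0.564 over all alternatives). Without these libraries it was -0.61 and passed (limma adjusted p = 0.016).

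The mRNAs of the factors at the centre, ATF4 and CHOP, rose. Atf4 (chromosome 15, 80255184 to 80257541 in mm10) was at 37.2, 31.8 and 36.6 FPKM in controls and at 87.8, 101.0 and 91.6 FPKM after LPS+PA-BSA. Each group was tight and the groups were far apart. Its mean went from 35.2 ± 2.92 to 93.5 ± 6.77 FPKM (SD, n = 3; limma log2 fold change 1.38 with SE 0.0944 and adjusted p = 5.42e-05). Ddit3 (chromosome 10, 127290774 to 127296288), the gene of CHOP, was at 18.3, 15.3 and 15.1 FPKM in controls and at 70.2, 84.6 and 73.1 FPKM after treatment. Its FPKM was 4.67 times the control level (limma log2 fold change 2.16 with SE 0.111 and adjusted p = 1.73e-05), the largest difference among the tested members. A second row with the symbol Ddit3 held at most 0.0374 FPKM and was not used. Per length, Atf4 was the most abundant member in both groups, and Ddit3 came second after treatment. Atf5 and Cebpg, which encode further bZIP factors of the response, did not pass the test. Atf5 was at 20.2 ± 1.5 and 18.1 ± 2.24 FPKM (log2 fold change -0.15, interval -0.41 to 0.11, limma adjusted p = 0.267), and Cebpg, a dimer partner of ATF4, at 8.59 ± 0.182 and 8.88 ± 0.0883 FPKM (0.04, interval -0.12 to 0.21, limma adjusted p = 0.601). Atf3, a further stress-induced factor outside the 34, rose from 112 ± 6.02 to 196 ± 5.80 FPKM (SD, n = 3; limma adjusted p = 0.000213).

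Among the effectors, Nupr1, a small chromatin-associated stress protein, was at 8.35, 8.18 and 7.04 FPKM in controls and at 19.7, 38.9 and 32.1 FPKM after treatment. All treated libraries lay above the controls, with LPS+PA 1 the lowest (limma log2 fold change 1.77 with SE 0.236 and adjusted p = 0.00102). Chac1, which degrades glutathione, was at 0.918, 1.23 and 0.376 FPKM in controls and 1.32, 1.86 and 2.23 FPKM after treatment. The groups did not overlap, but both were spread (limma log2 fold change 0.62 with SE 0.206 and adjusted p = 0.0401). The call was lost with a pseudocount of 0.1, without a filter, with the replicate block and without control 1, control 3, LPS+PA 2 or LPS+PA 3, and the value was 1.05 after the GC trend was removed. Stc2, the secreted glycoprotein stanniocalcin 2, missed the filter at 0.283, 0.260 and 0.255 FPKM in controls and 0.699, 1.23 and 0.738 FPKM after treatment, and was higher in the fit without a filter (log2 fold change 0.57, limma adjusted p = 0.0248).

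Trib3, the pseudokinase that CHOP and ATF4 induce and that holds both back, did not separate the groups. It was at 2.5, 2.3 and 1.32 FPKM in controls and 1.61, 3.59 and 3.99 FPKM after treatment. Control 3 and LPS+PA 1 were the lowest of their groups, and the groups overlapped through LPS+PA 1 (limma log2 fold change 0.39 with SE 0.280 and 95% interval -0.28 to 1.06, adjusted p = 0.275). In the other 4 libraries alone the value was 0.49 and passed (limma adjusted p = 0.00507), and after the GC trend was removed from all 6 it was 0.87 (limma adjusted p = 0.00387). Over all alternatives its adjusted p ran from 0.00387 to 0.581. The transcripts of Trib3 have a median GC content of 58.4%, among the highest of the members. Sesn2, the leucine-binding mTORC1 inhibitor sestrin 2, and Gadd45a, a growth arrest gene, have 58.7% and 60.9%, and their direction hung on the same step. Sesn2 was at 13, 14.3 and 11 FPKM in controls and 9.36, 9.85 and 10.8 FPKM after treatment (log2 fold change -0.32, limma adjusted p = 0.0487) but was at 0.37 after the GC trend was removed (limma adjusted p = 0.0148). Over the alternatives its adjusted p ran from 0.00808 to 0.550. Gadd45a went from 2.91 ± 0.239 to 2.23 ± 0.0861 FPKM (log2 fold change -0.28, limma adjusted p = 0.0292) and was at 0.38 after that removal, without a call (limma adjusted p = 0.218, within 0.0153 to 0.672 over the alternatives).

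Trib1, a relative of Trib3 that directs C/EBP alpha to degradation, fell. It was at 4.51, 4.12 and 3.69 FPKM in controls and 2.66, 2.53 and 2.14 FPKM after treatment, without overlap (limma log2 fold change -0.57 with SE 0.102 and adjusted p = 0.00386), and at -0.28 after the GC trend was removed, still past the threshold. Vldlr, the very low density lipoprotein receptor, was at 1.32, 1.48 and 1.56 FPKM and then at 0.760, 0.695 and 0.626 FPKM, all below the controls (limma log2 fold change -0.53 with SE 0.0807 and adjusted p = 0.00180). Ddit4, the mTORC1 inhibitor REDD1, was at 2.03, 2.03 and 2.90 FPKM and then at 0.954, 1.9 and 0.904 FPKM. The groups nearly touched at LPS+PA 2 (limma log2 fold change -0.58 with SE 0.194 and adjusted p = 0.0418). It did not pass when control 1, control 2, control 3, LPS+PA 1 or LPS+PA 3 was left out, without a filter, under both scalings, with the replicate block and after the GC trend was removed (-0.12). In the libraries other than control 3 and LPS+PA 1 the value was -0.37 and did not pass. Of the 13 factors and effectors, 4 were higher, 5 lower, 3 without a call and 1 not tested, not far from the 22.2% and 32.9% of all tested genes.

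**Figure D2:**
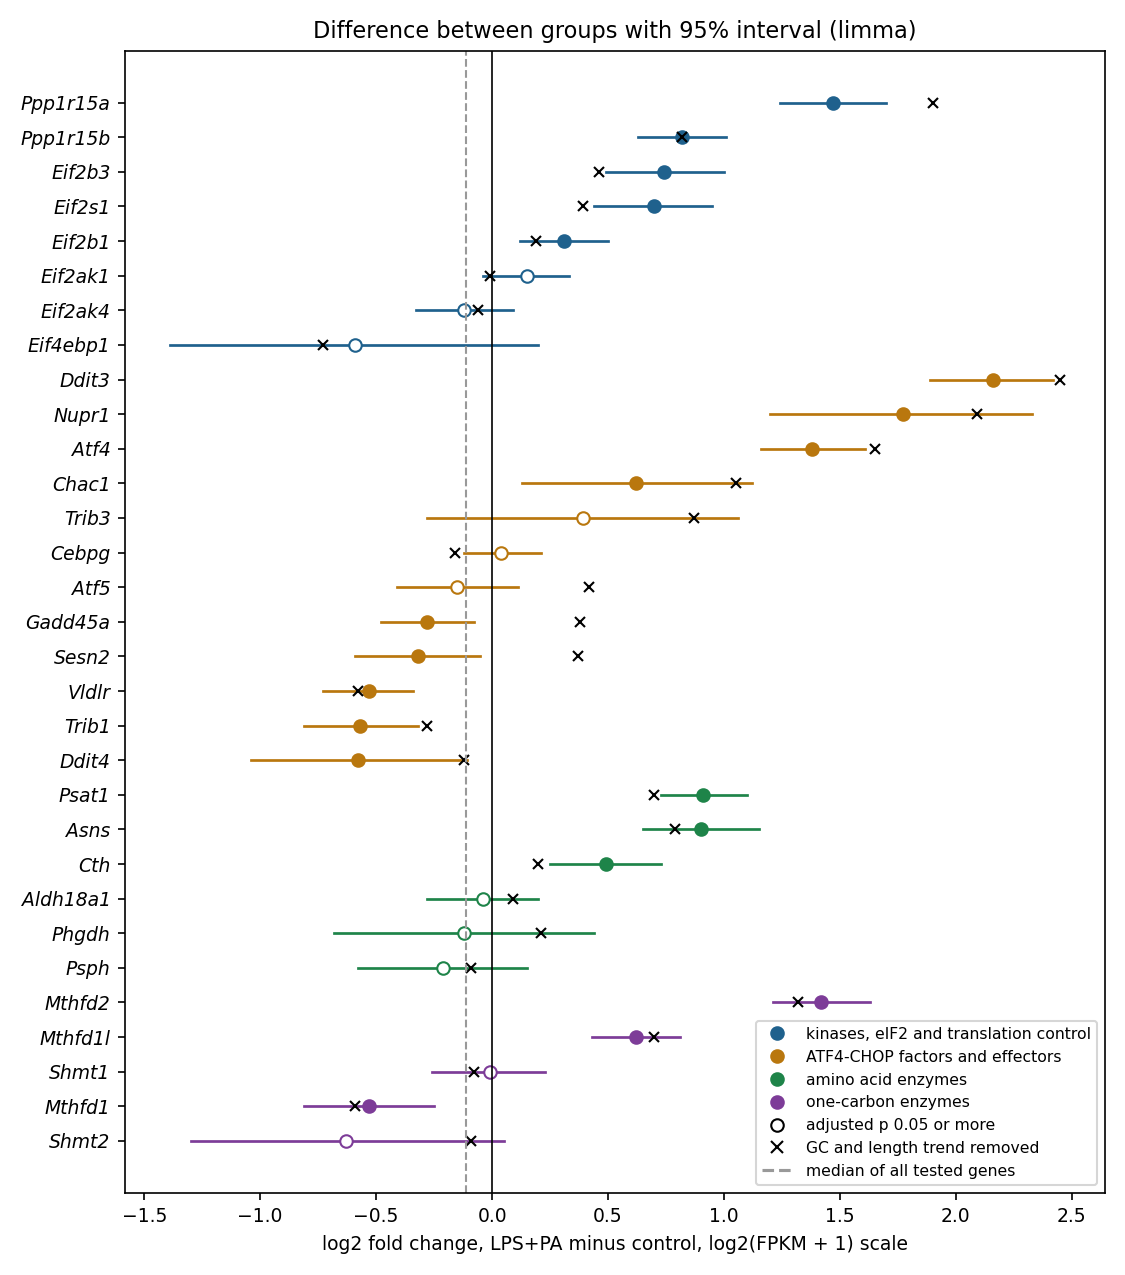
Difference between LPS+PA and control for the 31 tested genes on the log2(FPKM + 1) scale, with the 95% interval from limma, 3 libraries per group. Filled circles passed an adjusted p of 0.05, open circles did not, crosses show the value after each library's GC and length trend was removed, and the dashed line is the median of all tested genes at -0.11. For Gadd45a and Sesn2, both called lower, and for Atf5, Phgdh, Aldh18a1, Cebpg and Eif2ak1, which were not called, the crosses lie on the other side of 0.

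The amino acid enzymes split. Asns, asparagine synthetase, was at 11.7, 11.4 and 11.3 FPKM in controls, a very narrow range, and at 25.1, 19.3 and 22.7 FPKM after treatment. Its mean went from 11.5 ± 0.235 to 22.4 ± 2.90 FPKM (SD, n = 3; limma log2 fold change 0.90 with SE 0.105 and adjusted p = 0.000570). Cth, cystathionine gamma-lyase, which makes cysteine, was at 0.691, 0.452 and 0.461 FPKM in controls and 1.14, 1.01 and 1.31 FPKM after treatment. It had a log2 fold change of 0.49 (limma adjusted p = 0.00641), which was 0.20 and did not pass after the GC trend was removed (adjusted p from 0.00183 to 0.336 over the alternatives). Cbs, the enzyme before it, was at no more than 0.0588 FPKM in controls and was listed at 0 in LPS+PA 1 and 2. Of the proline path, Aldh18a1, which starts proline synthesis from glutamate, was at 5.89 ± 0.684 and 5.68 ± 0.231 FPKM (interval of the log2 fold change -0.28 to 0.20, limma adjusted p = 0.752). Without control 3 and LPS+PA 1 the value of Aldh18a1 was -0.12 and did not pass (limma adjusted p = 0.171). Pycr1, the mitochondrial enzyme at the end of the proline path, was below the filter in every library. It was at 0.769, 0.776 and 0.818 FPKM in controls and 0.131, 0.239 and 0.115 FPKM after treatment, all lower, and passed in the fit without a filter (log2 fold change -0.62, limma adjusted p = 0.00227).

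Of the serine path proper, the middle enzyme rose and its neighbours did not pass the test with all libraries. Phgdh, which takes 3-phosphoglycerate out of glycolysis in the first step, was at 6.45, 6.02 and 4.19 FPKM in controls and 3.37, 5.46 and 6.49 FPKM after treatment. The groups overlapped, with control 3 and LPS+PA 1 lowest (limma log2 fold change -0.12 with SE 0.232 and 95% interval -0.68 to 0.44, adjusted p = 0.679). Without these libraries the value was -0.06 (limma adjusted p = 0.623, within 0.202 to 0.962 over the alternatives). Psat1 (chromosome 19, 15904678 to 15947337), the aminotransferase of the second step, was at 4.70, 4.90 and 5.01 FPKM in controls and 10.6, 10.1 and 9.48 FPKM after treatment. Its FPKM was 2.07 times the control level with no overlap (limma log2 fold change 0.91 with SE 0.0775 and adjusted p = 0.000137). Psph, the phosphatase of the last step, was at 1.63, 1.49 and 0.903 FPKM in controls and 0.783, 1.25 and 0.994 FPKM after treatment, and the groups overlapped (limma log2 fold change -0.21 with SE 0.152 and 95% interval -0.58 to 0.15, adjusted p = 0.271). Without control 3 and LPS+PA 1 the value of Psph was -0.27 and did not pass (limma adjusted p = 0.0663). Psph passed as lower without control 3 alone (-0.35, limma adjusted p = 0.0415, within 0.0415 to 0.851 over the alternatives). Phgdh stood above Psat1 in controls 1 and 2 and below it in control 3, and after treatment Psat1 stood at 10.1 ± 0.559 FPKM against 5.11 ± 1.59 FPKM for Phgdh.

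The folate enzymes did not move together. Mthfd2 (chromosome 6, 83305691 to 83325908), the mitochondrial methylenetetrahydrofolate dehydrogenase, was at 8.11, 8.23 and 7.24 FPKM in controls and 24.2, 22.8 and 21.0 FPKM after treatment. Its mean went from 7.86 ± 0.542 to 22.7 ± 1.58 FPKM (SD, n = 3; limma log2 fold change 1.42 with SE 0.0882 and adjusted p = 3.77e-05). Mthfd1l, which releases formate from mitochondria in the next step, was at 3.81, 3.66 and 3.93 FPKM and then at 6.04, 6.74 and 6.36 FPKM, each treated library above every control (limma log2 fold change 0.62 with SE 0.0785 and adjusted p = 0.000817). Mthfd1, the cytosolic enzyme that takes formate up again, fell. It was at 6.39, 6.76 and 5.39 FPKM in controls and 3.44, 4.43 and 4.01 FPKM after treatment (limma log2 fold change -0.53 with SE 0.116 and adjusted p = 0.00864), and at -0.59 after the GC trend was removed. The cell cycle markers fell beside it, as given above, and their part in the fall was not tested.

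Serine itself enters folate through the hydroxymethyltransferases. Shmt2, the mitochondrial enzyme, was at 7.13, 8.18 and 3.32 FPKM in controls and 2.94, 3.68 and 3.77 FPKM after treatment. Control 3 lay among the treated libraries, so the groups overlapped (limma log2 fold change -0.63 with SE 0.281 and 95% interval -1.3 to 0.05, adjusted p = 0.0997). Without control 3 and LPS+PA 1 the value was -0.87 and passed (limma adjusted p = 0.000792), whereas between LPS+PA 1 and control 3 it was -0.14, and it was -0.09 after the GC trend was removed. Over the alternatives the adjusted p of Shmt2 ran from 0.000790 to 0.976. Shmt1, the cytosolic enzyme, was at 1.38 ± 0.155 and 1.36 ± 0.207 FPKM (interval -0.26 to 0.23, limma adjusted p = 0.908).

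**Figure D3:**
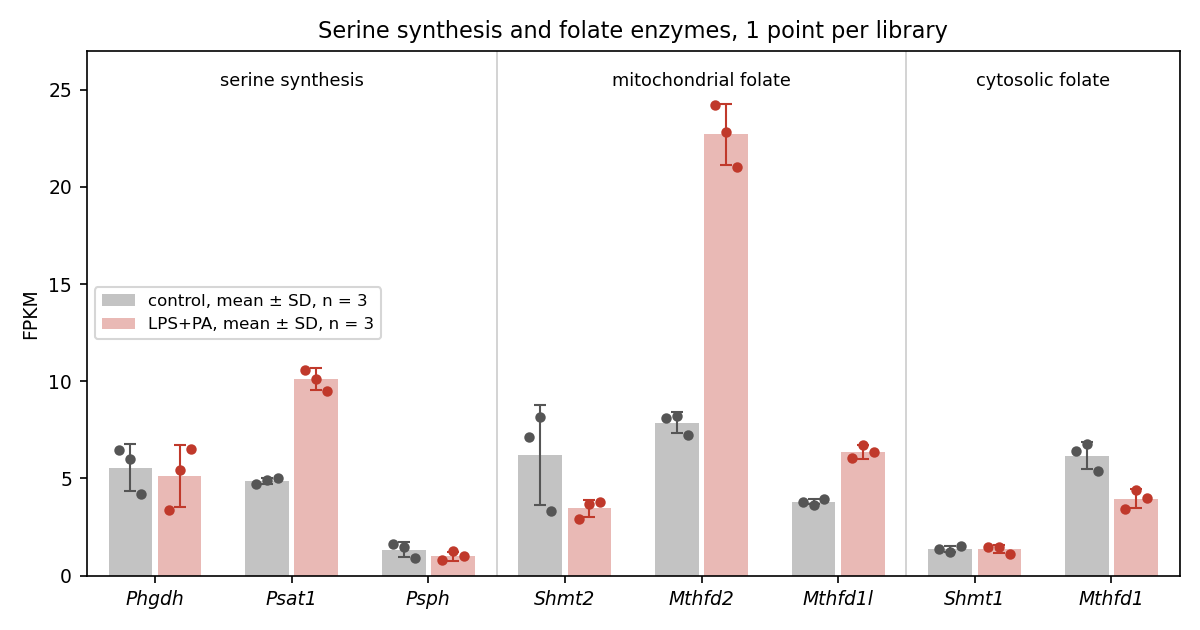
FPKM of the enzymes of serine synthesis and of mitochondrial and cytosolic folate metabolism, 1 point per library, with bars and error bars for the mean ± SD of 3 libraries per group. Psat1, Mthfd2 and Mthfd1l are higher in every LPS+PA library, Mthfd1 is lower in every one, and Phgdh, Psph, Shmt1 and Shmt2 overlap.

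Departures of control 3 and LPS+PA 1 touched some members more than others. In the other 4 libraries alone, Atf4, Ddit3 and Ppp1r15a had log2 fold changes of 1.46, 2.16 and 1.55, and between LPS+PA 1 and control 3 the differences were 1.24, 2.14 and 1.32. Nupr1 was at 1.97 and 1.37, Mthfd2 at 1.32 and 1.61, Psat1 at 0.90 and 0.95, and Asns at 0.80 and 1.09. For these 7 the direction was the same, and Nupr1 differed most in size. Ddit4 was at -0.37 and -1.0, Shmt2 at -0.87 and -0.14, and Trib3 at 0.49 and 0.17.

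**Figure D4:**
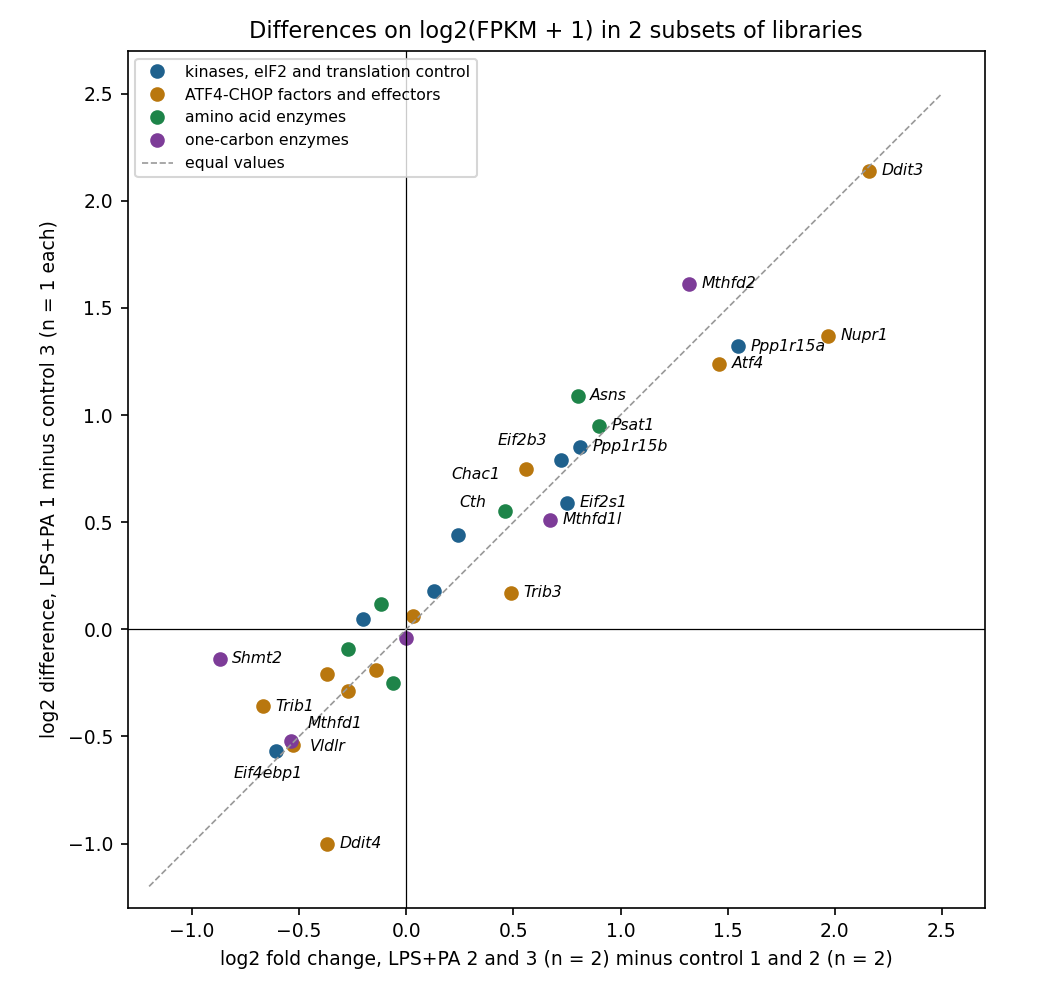
Log2 fold change of the 31 tested genes between LPS+PA 2 and 3 and control 1 and 2 (horizontal axis, 2 libraries per group) against the difference between LPS+PA 1 and control 3 (vertical axis, 1 library each), with members at 0.45 or more in either named. Most lie near the dashed line of equal values, and Ddit4, Shmt2, Trib3 and Nupr1 lie off it.

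The list of 65 other genes of the pathway, also chosen with earlier results of these data known, was counted the same way. Of these 54 were tested, of which 22 were higher and 12 lower, where 22.2% and 32.9% of all tested genes were, with a median log2 fold change of 0.15. Of 8 tested amino acid transporters with Slc symbols in the list, grouped after their values were seen, 4 were higher and 0 lower. Sfxn1, a mitochondrial serine carrier outside that count, did not pass (log2 fold change 0.17, limma adjusted p = 0.129). Slc7a11, the cystine and glutamate exchanger, rose from 19.2 ± 3.18 to 81.6 ± 9.82 FPKM and its partner chain Slc3a2 from 50.4 ± 4.05 to 128 ± 17.8 FPKM (SD, n = 3 per group; log2 fold changes 2.04 and 1.32, limma adjusted p = 5.83e-05 and 0.000183). Slc7a1, which carries arginine and lysine, rose from 1.99 ± 0.0763 to 5.68 ± 0.0815 FPKM, and Slc6a9, a glycine transporter, from 2.85 ± 0.835 to 5.66 ± 0.650 FPKM (limma adjusted p = 3.93e-05 and 0.00891). Of 12 tRNA synthetases in the list, also not set apart as a group in advance, 11 were higher and none lower. The shares over all tested genes were the same 22.2% and 32.9%, and the median log2 fold change of the synthetases was 0.48. These 11 are part of the 22 counted higher above. Iars passed narrowly (log2 fold change 0.21, limma adjusted p = 0.0465). After the GC trend was removed Iars was at 0.07 and did not pass (limma adjusted p = 0.256). The rest of the 11 still passed, Tars narrowly (limma adjusted p = 0.0459).

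The largest falls in the list lay in several steps of metabolism and stress signalling. Mtr, the methionine synthase, fell from 9.90 ± 0.590 to 3.20 ± 0.191 FPKM (log2 fold change -1.37, limma adjusted p = 3.33e-05). Aldh4a1, of proline breakdown, fell from 4.08 ± 1.18 to 0.534 ± 0.132 FPKM and Pck2, a mitochondrial enzyme that makes phosphoenolpyruvate, from 3.62 ± 1.09 to 0.999 ± 0.112 FPKM (limma adjusted p = 0.000430 and 0.00213). Aldh4a1 passed the filter through the controls alone, so its inclusion already required a difference. Sesn1, the p53-induced relative of Sesn2, fell from 39.5 ± 2.13 to 3.02 ± 0.258 FPKM (log2 fold change -3.33, limma adjusted p = 1.3e-06), and Ndrg1, a stress and hypoxia gene, from 50.3 ± 2.80 to 9.73 ± 0.127 FPKM (log2 fold change -2.26, limma adjusted p = 3.26e-06). Gcn1, the ribosome-bound activator of GCN2, was at 3.62 ± 1.68 and 1.05 ± 0.300 FPKM (limma adjusted p = 0.0184), which did not hold without a filter or when control 1, control 2 or LPS+PA 1 was left out.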

How the data were processed

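Per the file headers, the authors deposited FPKM values for 29957 genes, 1 column per library, beside their fold change (a ratio of group means) and its log2. The deposited p-value and q-value come from a tool that the labels do not name. Without roles, mm10, StringTie 2.1.6, HISAT2 2.2.1, edgeR, DESeq2 and cutadapt 1.9 are listed in the submitters' processing notes. Per the labels' protocols, poly(A) RNA was sequenced with a dUTP-marked second strand. Groups and replicate numbers come from the titles.

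No counts were used. The 11364 genes that reached 1 FPKM in 3 or more libraries were fitted with limma 3.58.1 (R 4.3.3) on log2(FPKM + 1) with a variance trend, two-sided and Benjamini-Hochberg adjusted over all of them. Fold changes on this scale understate low genes. The fit was also run on simulated data with independent noise. These lack the departures of control 3 and LPS+PA 1, so they cannot show how such departures affect calls. GC content and length are medians over each gene's transcripts in GENCODE M21 (mm10), known for 29858 genes, and their trend was removed by splines with 5 degrees of freedom. Coordinates come from the same annotation. Depths rest on the most frequent FPKM step in genes with 1 transcript, where 1 fragment in 1 kb was worth 0.0473 to 0.0719 FPKM, and cover counting error only. Depth did not separate the groups (means 17.0 and 16.8 M fragments, exact permutation test, two-sided p = 1, smallest possible 0.1). Promoter sequences are from RefSeq (GRCm38.p6). Tables and plots were made with scipy 1.17.1, numpy 2.4.6, matplotlib 3.10.9 and pandas 2.3.3 (Python 3.11.15).

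The members and lists were chosen with earlier results of these data known. Given in full were members past the threshold whose log2 fold change was 0.5 or more in size, plus Atf4, Ddit3, Trib3, Chac1, Asns, Phgdh, Psat1, Psph and Shmt2. Of the other pathway genes these were the 6 largest rises and falls, plus Eif2ak2, Eif2ak3 and Atf3. A gene that this rule names is not reported here. In any library, markers summed to at most 6.05 FPKM for erythroid cells, 2.27 for mast cells and basophils, 1.46 for dendritic cells, 7.35 for T and NK cells, and 10.3 for B cells; the T and NK and the B cell sums fell to at most 1.37 and 1.24 after treatment.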

Additional observations from a re-analysis of the deposited data

How the results depend on the processing

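Of the 14 members called higher, 9 kept direction and call under every alternative run (Atf4, Ddit3, Nupr1, Ppp1r15a, Ppp1r15b, Eif2b3, Asns, Psat1 and Mthfd2), and of the 6 called lower 1 did (Vldlr). Vldlr passed the filter through the controls alone, so its inclusion already required a difference. Of the 11 not called, 4 stayed so and 7 gained a call under some alternative. Eif2b3 and Vldlr could not be tested at 5 FPKM. Leaving out 1 library gave 12 to 15 members higher and 3 to 7 lower (3 without control 1, LPS+PA 1 or LPS+PA 3), 2007 to 2778 genes higher and 2765 to 4273 lower in all, and 19 to 23 other pathway genes higher and 10 to 14 lower. Members lower numbered 3 under quantile normalization, median scaling, the replicate block, and GC and length trend removal with or without the block, and 2 at a filter of 5 FPKM, where fewer genes were tested and 2009 genes in all were lower. Sesn2 and Gadd45a turned to 0.37 and 0.38 with the GC trend removed, with or without the block. The cause was not tested. Sign changes of values called in neither fit were not counted.

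It is not described if replicate numbers pair the samples. Same-numbered libraries had correlations of -0.472, 0.0907 and -0.589 in their deviations from group means, and control 3 and LPS+PA 1 had 0.603. Since these deviations also carry the departures of control 3 and LPS+PA 1, they cannot decide if libraries were paired. The replicate block called 12 members higher and 3 lower, 1918 and 2820 genes in all. Within control 3, LPS+PA 1 and LPS+PA 2, a set described in earlier work on these data, 1 member was lower, 1197 and 1797 genes were higher and lower in all, and 11 and 6 of the other pathway genes, with 1 control assumed to vary like the treated libraries. By GC content LPS+PA 2 lay nearer to LPS+PA 3 than to LPS+PA 1 (Spearman's rho -0.237, -0.166 and -0.519 against the mean of all 6 libraries), and both were near control 3 (-0.146). Fits with a term for control 3 and LPS+PA 1 and without them were added after seeing the data, and called 16 and 8, and 15 and 8, members higher and lower.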

Other observations

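Cebpb, the gene of the bZIP factor C/EBP beta, had mean levels of 0.380 ± 0.127 (control) and 0.484 ± 0.220 FPKM (LPS+PA-BSA, SD, n = 3) and reached 1 FPKM in no library, and the secreted stress factors Gdf15 and Fgf21 did not pass the filter either. Gdf15 was at 0.579 ± 0.387 and 0.642 ± 0.501 FPKM. The transcripts of Cebpb and Gdf15 have a median GC content of 67.2% and 61.3%. The part of GC content in these low values was not tested. These 3 genes were chosen after their values were seen.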
